A study of Mus musculus with 2 samples.

Results

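The mitochondrial ribosomal protein genes were taken as every feature whose symbol begins with Mrpl or Mrps followed by a digit. This gave 78 of 32285 features, 49 named for the large subunit (Mrpl) and 29 named for the small subunit (Mrps), and no pseudogene feature carried such a name. All 78 were found in the GENCODE annotation of mm10 as protein-coding genes. They were followed in splenic natural killer (NK) cells of mice under control conditions and under dietary restriction (DR), across NK stages, dividing NK cells, group 1 innate lymphoid cell (ILC1)-like cells, B cells and T cells. Spleen NK cells were sorted by flow cytometry and profiled with droplet 3' single-cell RNA sequencing, with 1 library per group. The labels name the treatments only as control and dietary restriction, and strain, age, the number of animals, the sort gate and the length of the diet are not given in the sources used here. With 1 library per group no difference between the diets has a replicate check, so every interval below covers counting error only.

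The mitochondrial ribosome translates the few messenger RNAs encoded in mitochondrial DNA, all of which specify subunits of the respiratory chain and ATP synthase. Its RNAs come from mitochondrial DNA, whereas every one of its proteins is encoded in the nucleus, made on cytosolic ribosomes and imported. The large subunit forms peptide bonds and the small subunit reads the message. In lymphocytes, activation and cell growth are accompanied by mitochondrial biogenesis, in which these genes take part.

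The promoters of the members on which the results turn are shown first, because the members were compared for motifs there. Each sequence is the 250 bases before the RefSeq transcription start on GRCm38.p6, written 5' to 3' on the gene's strand in lower case. Capitals mark an ETS motif (CCGGAAG) in Mrpl51 and CCAAT boxes, or their reverse complement, in Mrpl33 and Mrps30. Mrpl33, Mrps21 and Mrps30 were lower in the DR library, Mrps18b was higher in B-like and T-like cells and in an NK cluster led by Ccl1, E2f1 and Mettl1, and Mrpl51 was higher in dividing NK cells. Mrpl4 (chr9:21002738-21008839), Mrpl38 (chr11:116131817-116138868), Mrps28 (chr3:8802146-8923918) and Mrpl54 (chr10:81264713-81266934) are given by the position of their GENCODE gene only. The RefSeq starts shown for Mrpl33 and Mrpl51 lie within longer GENCODE genes (chr5:31596935-31664384 and chr6:125191801-125196269).
Mrpl33, chr5:31613701-31613950, plus strand: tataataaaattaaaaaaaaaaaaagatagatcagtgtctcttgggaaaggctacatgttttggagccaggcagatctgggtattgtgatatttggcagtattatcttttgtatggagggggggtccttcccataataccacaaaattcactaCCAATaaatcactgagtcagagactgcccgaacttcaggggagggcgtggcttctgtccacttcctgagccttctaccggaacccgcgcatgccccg
Mrps21, chr3:95871515-95871764, minus strand: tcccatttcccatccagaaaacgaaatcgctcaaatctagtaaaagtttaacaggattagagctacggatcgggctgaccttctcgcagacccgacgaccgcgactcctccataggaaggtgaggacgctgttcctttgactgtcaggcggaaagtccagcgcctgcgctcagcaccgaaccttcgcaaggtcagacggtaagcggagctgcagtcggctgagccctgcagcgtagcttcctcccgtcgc
Mrps30, chr13:118387253-118387502, minus strand: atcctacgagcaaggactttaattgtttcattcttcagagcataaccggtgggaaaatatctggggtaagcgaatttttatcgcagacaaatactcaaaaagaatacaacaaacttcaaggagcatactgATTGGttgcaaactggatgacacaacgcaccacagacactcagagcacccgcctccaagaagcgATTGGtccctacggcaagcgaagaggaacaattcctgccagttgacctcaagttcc
Mrps18b, chr17:35916441-35916690, minus strand: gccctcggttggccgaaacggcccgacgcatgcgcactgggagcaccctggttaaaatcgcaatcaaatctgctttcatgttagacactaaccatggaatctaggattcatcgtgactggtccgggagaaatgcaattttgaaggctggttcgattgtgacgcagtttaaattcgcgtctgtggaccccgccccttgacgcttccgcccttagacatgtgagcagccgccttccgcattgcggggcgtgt
Mrpl51, chr6:125191950-125192199, plus strand: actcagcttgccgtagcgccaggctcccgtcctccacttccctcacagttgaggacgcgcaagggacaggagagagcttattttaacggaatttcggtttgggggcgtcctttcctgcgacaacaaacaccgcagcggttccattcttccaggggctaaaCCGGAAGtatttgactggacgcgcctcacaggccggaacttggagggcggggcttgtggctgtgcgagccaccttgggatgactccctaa

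Motifs were counted on both strands in windows of 300 bases, 250 before and 50 after the start, for 75 promoters of the 69 members that matched the RefSeq table by symbol and for all 32851 promoters in it. The ETS motif CCGGAAG, bound by GABP among other factors, was in 34.7% of the member promoters and in 8.86% of all promoters. The YY1 motif AAGATGGC was in 16.0% of member promoters and in 2.75% of all. The palindromic NRF1 motif was in 4.0% against 0.971%, the E-box CACGTG in 9.33% against 7.15%, and the CCAAT box in 40.0% against 37.4%. The ETS, YY1 and NRF1 motifs were thus several times as frequent in member promoters as in promoters at large, NRF1 from 3 promoters. The E-box and the CCAAT box were near the general share. The general share covers promoters of genes with and without expression in these cells. Member promoters were not compared with those of expressed genes alone, so the difference may not be particular to the members. These matches are letters in a window and were not tested as binding sites. Mrps21 and Mrps18b hold none of the 5 motifs in the bases shown. Members also sat close to other genes: 18 of 78 (23.1%) had a gene on the opposite strand starting within 1000 bases upstream of their own GENCODE start, against 634 of 5674 (11.2%) other protein-coding genes of at least 20 CPM (UMIs per 1000000 UMIs) in NK-like cells. Mrpl51, for example, starts 100 bases from Ncapd2, which encodes a condensin subunit, and Mrpl54 starts 26 bases from Apba3. Mrpl46 and Mrps11, which overlap each other at their 5' ends on opposite strands, are not in this count. The longest annotated transcript had a median of 1866.5 bases for members and 3387.5 bases for the other genes.

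The control matrix held 5702 barcodes with 44526828 unique molecular identifiers (UMIs) and the DR matrix 6287 barcodes with 42134212 UMIs, with medians of 7151.5 and 5782 UMIs per barcode. After filtering and removal of likely doublets, 5225 and 5785 cells were kept. Of these, 4269 and 4157 formed NK-like clusters, in which all 10 NK markers (such as Ncr1, Klrb1c and Prf1) reached 20 CPM in both libraries. The clusters were named from these markers. NK-like cells were kept only where NK transcripts exceeded those of B, T and other lineages. Marker levels in the named classes are thus a description and no check of the names. All 10 NK markers also reached 20 CPM in control B-like and control ILC1-like cells. Despite the sort, 123 control and 455 DR cells were B-like and 3 control and 290 DR cells were T-like. In NK-like cells the summed level of 10 B cell markers was 128 CPM in the control and 197 CPM in the DR library. The summed level of 10 T cell markers was 294 and 251, and Cd3e, Cd8b1 and Cd6 were at 0 in the control. What part these transcripts had in the results was not tested. The libraries share 13 barcodes, and leaving those cells out changed no count of members called between the diets in NK-like cells.

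In NK-like cells the members together held 168559 control and 119405 DR UMIs, of which the large subunit genes held 110112 and 78342. Levels are given as CPM of a cell class, with UMIs summed over its cells; a 3' library counts transcript ends, so they were not divided by length. Most members were expressed at moderate level: 69 averaged 20 CPM or more over both libraries, the other 9 lay between 5 and 20 CPM, and none was at 0. Mrpl33, which encodes a small protein of the large subunit, was the highest, with 284 CPM (control) and 209 CPM (DR). Mrpl52, a large subunit protein without a bacterial counterpart, was second over both libraries, at 231 and 239 CPM. In the small subunit the highest were Mrps21 at 174 and 135 CPM, Mrps24 at 157 and 149 CPM and Mrps14 at 154 and 155 CPM. At the other end stood Mrps27 at 6.75 and 6.62 CPM, Mrps2 at 6.66 and 7.10 CPM, Mrpl47 at 9.35 and 10.8 CPM, Mrpl37 at 11.2 and 12.3 CPM and Mrps28 at 14.7 and 15.4 CPM. The intervals of the 2 libraries overlapped for each of these 5 low members.

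Several members have roles outside the subunit their symbol names. Mrps30 and Mrps18a lie in the large subunit in structures of the mammalian mitoribosome. Mrps36 is a component of the 2-oxoglutarate dehydrogenase complex, and it stood at 83.3 CPM in the control and 84.8 CPM in the DR library. Mrpl58 is a peptidyl-tRNA hydrolase that rescues stalled ribosomes, at 125 and 121 CPM. Mrpl12, a protein of the large subunit stalk that also binds the mitochondrial RNA polymerase, stood at 59.7 and 56.4 CPM, and Mrps12, at the decoding centre of the small subunit, at 66.4 and 62.1 CPM. Of the 3 Mrps18 paralogues, which occupy different places in the ribosome, Mrps18c was at 74.7 and 76.5 CPM, Mrps18a at 41.0 and 42.3 CPM and Mrps18b at 15.7 and 17.1 CPM. For Mrps36, Mrpl58, Mrpl12, Mrps12 and the Mrps18 genes the log2 ratio of DR to control lay between -0.10 for Mrps12 and 0.12 for Mrps18b.

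**Figure D1:**
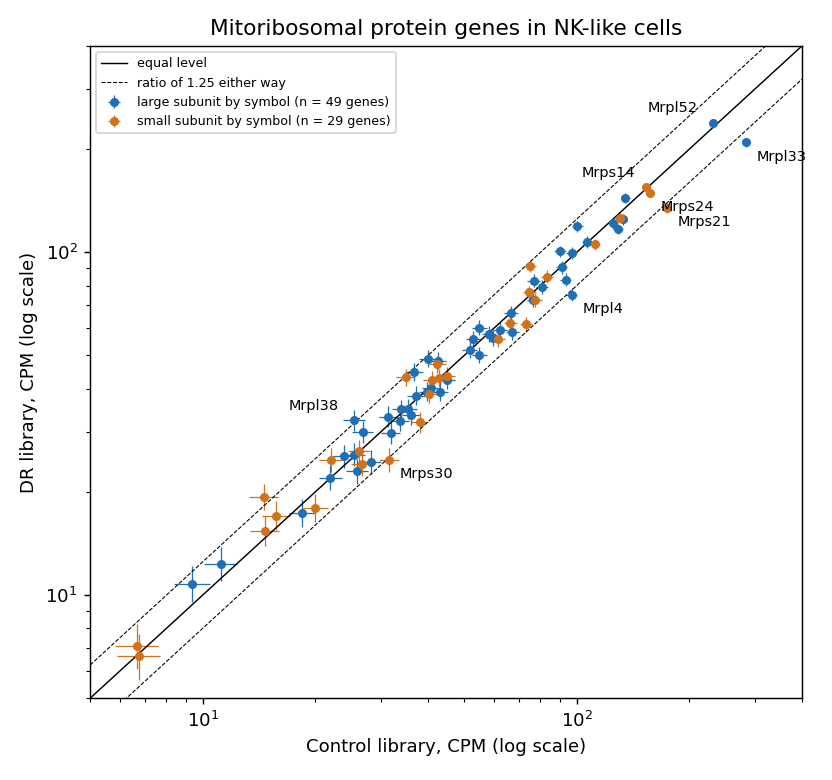
Level of each of the 78 genes in NK-like cells of the control library (x axis) and the DR library (y axis), in CPM on log scales, with 95% exact Poisson intervals. Points lie along the line of equal level; Mrpl33, Mrps21, Mrpl4 and Mrps30 lie below the dashed line for a level 20% lower, and Mrpl38 lies above that for a level 25% higher.

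The first comparison set the DR library against the control library in NK-like cells. The summed level of the members was 4925 CPM in the control and 4793 CPM in the DR library, a log2 ratio of -0.04 (95% interval -0.05 to -0.03) that turned to 0.02 when libraries were scaled by the median of ratios. Members were called higher or lower by size, as at least 25% higher or 20% lower with a 95% exact interval of the ratio that leaves out 1. Of the 69 members of at least 20 CPM, 1 was called higher and 4 were called lower. Over all 5850 genes of that level, 3.2% were called higher and 8.27% lower. The share of members called lower, 4 of 69, was thus no larger than that of all genes. The median log2 ratio was -0.02 for the members and -0.06 for all genes. By the subunit in the symbol, the large subunit genes had 1 higher and 2 lower of 46, and the small subunit genes none higher and 2 lower of 23. Mrps30, which lies in the large subunit, is counted here with the small one.

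The 4 members called lower were Mrpl33, Mrps21, Mrpl4 and Mrps30. Mrpl33 had 284 CPM in the control and 209 CPM in the DR library, a log2 ratio of -0.44 (-0.49 to -0.39). The Poisson intervals of the libraries, 278 to 289.6 and 203.5 to 215 CPM, did not overlap. Its exons overlap those of Gm43809 on the same strand, so its count is uncertain to that extent. Mrps21, of the small subunit, had 174 CPM in the control and 135 CPM in the DR library, and the ratio was -0.37 (-0.44 to -0.31) on the log2 scale. Mrpl4, whose bacterial homologue lines the exit tunnel for the growing peptide, had 96.9 and 75.3 CPM, with a log2 ratio of -0.37 (-0.45 to -0.28). Mrps30 had 31.5 and 24.8 CPM, with a log2 ratio of -0.34 (-0.49 to -0.20). All 4 were therefore higher in the control library with intervals that did not overlap. With median-of-ratios scaling Mrpl33 remained lower at -0.38, whereas Mrps21 (-0.31), Mrpl4 (-0.30) and Mrps30 (-0.28) kept their sign and were no longer called.

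Mrpl38, a large subunit protein, was the member called higher, at 25.4 CPM in the control and 32.3 CPM in the DR library, with a log2 ratio of 0.35 (0.21 to 0.49). Mrps35 of the small subunit followed at 34.9 and 43.2 CPM (0.31 on the log2 scale), and Mrps26, also of the small subunit, at 74.95 and 91.2 CPM (0.28). Both were higher in the DR library with intervals that did not overlap, but were less than 25% higher. With median-of-ratios scaling 5 members were called higher, namely Mrpl38, Mrps35, Mrpl53, Mrpl11 and Mrps26, and 1 lower, Mrpl33. The shares of all genes called under this scaling are not given here. The list of called members between the diets therefore rests on the scaling, apart from Mrpl38 and Mrpl33.

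The same members were read in 6 separate classes of cells, namely the 4 NK stages, ILC1-like cells and B-like cells. Mrpl33 was lower in the DR library in 6 of 6, with log2 ratios from -0.51 in ILC1-like cells to -0.17 in B-like cells, and was called lower in 5. Mrps21 was below 0 in 6 of 6, from -0.43 to -0.25, and called in 3. Mrpl4 was below 0 in 5 of 6 and called lower in those 5; B-like cells, at 52.8 CPM in the control and 53.4 CPM in the DR library, did not differ beyond counting error. Mrps30 was below 0 in 6 of 6, from -0.55 in B-like cells to -0.13 in cells without Cd27 or Itgam UMIs. Mrpl38 was above 0 in 5 of 6 and called higher in 2, but was at -0.16 in ILC1-like cells. Mrps35, which was not called in NK-like cells together, was above 0 in 6 of 6, from 0.17 to 0.69, and called higher in 3. These classes come from the same pair of libraries, so they are no replicates of the diet.

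In Cd27-only cells 3 of 72 members were called higher (all genes 4.7%) and 9 lower (all genes 9.87%) in the DR library. The counts were 1 and 5 of 68 in double-positive cells (4.81% and 9.2%), 3 and 3 of 69 in Itgam-only cells (4.24% and 8.8%), and 5 and 5 of 70 in cells with neither gene (4.48% and 10.4%). ILC1-like cells had 1 higher and 7 lower of 73 (4.41% and 9.95%), and B-like cells had 1 higher, Mrpl20, and 1 lower, Mrps30, of 72 (4.14% and 10%). The summed log2 ratio ranged from -0.10 in ILC1-like cells to 0.04 in B-like cells, where the interval (-0.01 to 0.08) includes 0. The summed level of the members thus differed little between the diets in each of the 6 classes, and the shares called lower were below those of all genes except in Cd27-only cells, where 9 of 72 lay above 9.87%.

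Other mitochondrial genes were read for comparison. The mitochondrially encoded messenger RNAs, which the mitoribosome translates, summed to 17130 CPM in the control and 24980 CPM in the DR library, a log2 ratio of 0.54, and 8 of 12 were called higher. They included mt-Co2, a subunit of cytochrome oxidase, at 2549 and 4207 CPM. Among 85 nuclear genes of the respiratory chain, 0 were called in either direction, with a median log2 ratio of -0.04. Of the cytosolic ribosomal protein genes 2 of 83 were called higher, and their median was 0.15. None of the 8 assembly factors, 6 translation factors, 3 mitochondrial aminoacyl-tRNA synthetases or 8 transcription and biogenesis genes that were measured was called. Mitochondrial transcripts are also a measure of cell quality: the median mitochondrial share of UMIs per barcode was 1.63% in the control and 2.57% in the DR library, and its part in the summed level was not tested.

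The second comparison followed NK maturation, which in mice runs from cells with Cd27 alone through cells with both Cd27 and Itgam (CD11b) to cells with Itgam alone. Stages were read from the UMIs of the 2 genes, so a cell of low depth can miss a stage gene. The stages hold all NK-like cells outside the cycling cluster, so they include the cluster led by Ccl1, E2f1 and Mettl1. The part of that cluster, which had a high member level, in the stage levels was not tested. Summed member levels in the control library were 5148 CPM in 466 Cd27-only cells, 4882 CPM in 1042 double-positive cells and 4780.5 CPM in 2139 Itgam-only cells, and 5023 CPM in 574 cells with neither gene. In the DR library they were 4820.2 CPM in 714, 4691 CPM in 954 and 4777 CPM in 1542 cells, and 4917 CPM in 941 cells with neither. The control library thus showed a step down along the stages, with intervals that did not overlap. In the DR library the double-positive cells were lowest, with an interval that overlapped that of Itgam-only cells, and the intervals of Cd27-only (4759.6 to 4881) and Itgam-only cells (4730.2 to 4824) overlapped.

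Itgam-only against Cd27-only cells gave a summed log2 ratio of -0.11 (-0.13 to -0.09) in the control and -0.01 (-0.04 to 0.01) in the DR library. In the control library 0 of 70 members were called higher and 10 lower, against 18.8% and 8.92% of all genes. In the DR library 1 of 69 was called higher and 3 lower, against 13.7% and 5.17%. The median log2 ratio was -0.12 for members and 0.10 for all genes in the control, and -0.02 and 0.10 in the DR library, so relative to the typical gene the members were lower in Itgam-only cells of both libraries. The median depth was 8577.5 UMIs in Cd27-only and 6715 in Itgam-only control cells. After thinning each cell to 4000 UMIs, the summed ratio in the control library was -0.04. With median-of-ratios scaling it was -0.21 in the control and -0.12 in the DR library, so the size of the difference rests on the scaling.

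Members called lower in Itgam-only cells of both libraries were Mrpl19 and Mrps34. Mrps34, a small subunit protein particular to mitochondria, had 54.2 CPM in Cd27-only and 40.5 CPM in Itgam-only cells of the control library, and 54.7 and 39.8 CPM in the DR library. Its exons overlap those of Nme3 on the same strand. Mrpl19, of the large subunit, had 49.8 and 36.7 CPM in the control and 47.1 and 35.6 CPM in the DR library. Both genes were therefore lower in Itgam-only cells by similar amounts, with log2 ratios between -0.46 and -0.41, in both libraries. Mrpl12 had the lowest ratio in the control, at 75.8 and 50.8 CPM (log2 ratio -0.58), and 61.9 and 51.3 CPM in the DR library (-0.27), where it was not called. Mrpl23, whose bacterial homologue sits at the tunnel exit, had 120.1 and 90.0 CPM in the control and 138 and 113 CPM in the DR library. Of the 10 members called lower in the control library 9 were large subunit genes and 1 was a small subunit gene, Mrps34. Large subunit genes by symbol are 49 of the 78 members, and a difference between the subunits was not tested. The difference between the libraries in this contrast was not tested. Apart from Mrpl44 and Mrps34, the 10 members were also called higher in the control cluster led by Ccl1, E2f1 and Mettl1, as were 43 members in all. The stages include that cluster, so the stage result and the cluster result are not separate.

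Double-positive against Cd27-only cells gave 0 higher and 4 lower of 70 members in the control (6.43% and 4.34% of all genes) and 2 and 2 of 69 in the DR library (4.02% and 2.02%). The 4 in the control were Mrpl15, Mrpl2, Mrpl22 and Mrpl38. The cytosolic ribosomal protein genes moved further between the stages than the mitochondrial ones: 71 of 83 were lower in Itgam-only than in Cd27-only control cells and 62 of 83 in DR cells, with medians of -0.46 and -0.38. Myc, a transcription factor that drives cell growth, had 45.2 CPM in Cd27-only and 17.9 CPM in Itgam-only control cells, and 36.4 and 17.9 CPM in DR cells. Tufm, the mitochondrial elongation factor, was also lower in Itgam-only cells, at 33.2 and 24.1 CPM in the control and 33.4 and 25.6 CPM in the DR library.

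**Figure D2:**
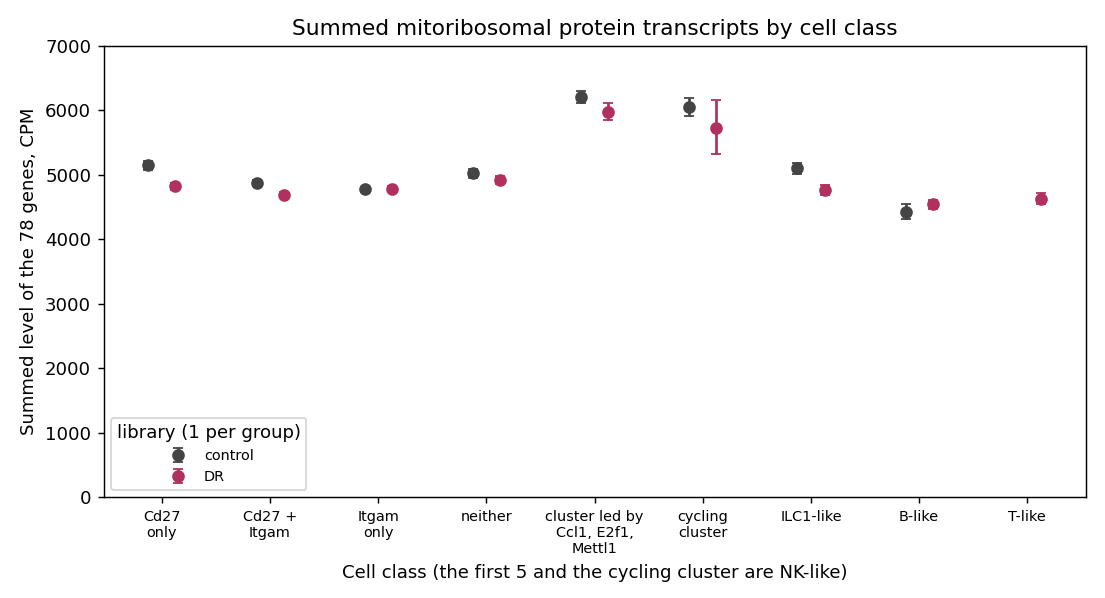
Summed level of the 78 genes in CPM (y axis, from 0) in each cell class (x axis) for the control and DR libraries, with 95% exact Poisson intervals that cover counting error only. The NK cluster led by Ccl1, E2f1 and Mettl1 (6212 and 5981 CPM) and the cycling cluster (6046 and 5731 CPM) stand above the stages and the other lymphocytes; T-like cells are shown for the DR library, which has 290 of them.

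The highest member level among NK-like clusters, with intervals that overlapped those of the cycling cluster, was in a cluster led by Ccl1, E2f1, Mettl1, Cdca7, Dtl, Tnfrsf9 and Srm, with 221 control and 143 DR cells. Its leading genes include a transcription factor of the cell cycle (E2f1), a tRNA methyltransferase (Mettl1), the spermidine synthase (Srm) and an activation receptor (Tnfrsf9, 4-1BB). It was clustered without the members among the variable genes, it was left unnamed, and its comparison with the rest of the NK-like cells was added after its level was seen, so it is a description. The summed member level was 6212 CPM in this cluster and 4763 CPM in the remaining NK-like cells outside the cycling cluster of the control library, and 5981 and 4720.0 CPM in the DR library. The cluster was thus higher in both libraries, with log2 ratios of 0.38 (0.36 to 0.41) and 0.34 (0.31 to 0.37). The cells had a median of 11367 UMIs in the control against 6992 in the rest. After thinning to 4000 UMIs the ratio was 0.33 in both libraries. With likely doublets kept the cells were clustered anew, and the nearest cluster was led by Spp1, Tnfrsf9 and Mettl1. Neither Ccl1 nor E2f1 was among its leading genes. It was a wider set of 581 control and 202 DR cells, with ratios of 0.21 and 0.22. The size of the ratio thus differed between these clusterings. The 12 cycling markers summed to 1748 CPM in the Ccl1-led cluster and 591 CPM in the rest of the control library, and to 1353 and 604 CPM in the DR library. Their part in the result was not tested.

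In the control library 43 of 73 measured members were called higher in this cluster and 1 lower (all genes 17.8% and 32.8%), and in the DR library 30 of 74 were called higher and none lower (all genes 15.7% and 27.1%). Without a minimum level, the counts over all 78 members were 47 higher and 1 lower in the control and 31 and 0 in the DR library. The share of all genes without a minimum is not given here, so these counts have no general share beside them. The 26 called higher in both libraries held both subunits, and include Mrps28, Mrps18b, Mrpl45 and Mrps6, which lay under 20 CPM in the rest and reached it only through the cluster. The medians were 0.39 and 0.32 for the members and -0.15 and -0.13 for all genes. Large subunit genes had 28 higher of 47 and small subunit genes 15 of 26 in the control, so the subunits were about equally represented.

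Mrps28 stood apart. It encodes a small subunit protein and had 10.8 CPM in the rest and 49.3 CPM in the cluster in the control library, and 12.6 and 63.6 CPM in the DR library. The log2 ratios were 2.18 (1.89 to 2.48) and 2.33 (1.97 to 2.68). One of the lowest members in NK-like cells as a whole was therefore at a common level in these cells. Mrps18b, likewise low elsewhere, had 14.1 and 31.8 CPM in the control and 15.8 and 39.6 CPM in the DR library. Mrpl23 had 91.5 and 189.5 CPM in the control and 113 and 227 CPM in the DR library. Mrpl54, a large subunit protein particular to mitochondria, had 41.3 and 83.2 CPM in the control and 39.9 and 87.5 CPM in the DR library, and Mrpl12 had 54.3 and 104.6 CPM and 54.0 and 98.0 CPM. These 5 members were higher in the cluster with intervals that did not overlap in either library.

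Among the most abundant members, Mrpl33 had 273 CPM in the rest and 365.5 CPM in the cluster in the control library, and 203 and 305 CPM in the DR library. Its level in the cluster was above that in the rest in both libraries, and its lower level in the DR library held in both sets of cells. Mrpl52 had 227 and 293 CPM in the control and 235 and 320.1 CPM in the DR library. Mrpl58, the peptidyl-tRNA hydrolase, was not called in either library, at 123 and 133 CPM and at 121.0 and 126 CPM. Mrpl9, of the large subunit, was the member called lower in the control, at 96.0 and 76.7 CPM, but it had 83.2 and 80.0 CPM in the DR library with overlapping intervals.

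Other genes of the pathway were read in the same cluster. Of 85 nuclear respiratory chain genes 42 were called higher in the control and 43 in the DR library, and of 83 cytosolic ribosomal protein genes 52 and 34. Among translation factors, Tufm had 24.9 and 38.2 CPM in the control and 27.5 and 41.9 CPM in the DR library, and Lrpprc, which stabilises mitochondrial messenger RNAs, had 16.7 and 28.9 CPM and 15.9 and 26.9 CPM. Both were higher in the cluster. The mitochondrially encoded messenger RNAs were not: 0 of 13 were called higher in the control, with summed levels of 17194 and 16615 CPM, and 0 of 12 in the DR library. Lars2, the mitochondrial leucyl-tRNA synthetase, was lower in the cluster, at 299 and 208 CPM in the control and 325 and 234 CPM in the DR library. Of the 26 members higher in both libraries, 22 had a promoter in the table, and 10 of these held the ETS motif, against 16 of 47 other members.

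Actively dividing NK cells formed a separate cluster led by histone genes, Mki67 and Birc5, with 48 control cells and 6 DR cells. The summed member level was 6046 CPM in the cycling cells and 4886 CPM in other NK-like cells of the control library, a log2 ratio of 0.31 (0.27 to 0.34). In the DR library it was 5731 and 4788 CPM, a log2 ratio of 0.26 (0.15 to 0.37), from 708 member UMIs in 6 cells. Of 70 members in the control 26 were called higher and 4 lower, where all genes gave 22.6% and 29.6%. In the DR library 6 of 67 were called higher and none lower (12% and 8.59% of all genes). The medians were 0.24 and 0.21 for the members and -0.11 and -0.03 for all genes. Cycling control cells had a median of 23816 UMIs against 7106 in the others, and at 4000 UMIs per cell the summed ratio was 0.33. A looser gate set cells with at least 5 UMIs over 12 cell cycle genes against cells with at most 1. It took 1817 control and 1256 DR cells and gave ratios of 0.03 and -0.03. The higher level of the cluster was not seen in that wider set. The 12 genes summed to 591 CPM in control NK-like cells outside the cycling and Ccl1-led clusters, so this gate depends on depth. It cannot check the level of the cycling cluster.

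Mrpl51, a large subunit protein, had the highest ratio in the cycling cells of the control library. It had 72.3 CPM in other NK-like cells and 202 CPM in cycling cells of the control library, and 82.1 and 202 CPM in the DR library. Cycling cells were higher in both libraries without overlap of the intervals. Next in the control library came Mrpl49 at 24.4 and 53.8 CPM, Mrps28 at 14.1 and 30.7 CPM, which reached the minimum level only through the cycling cells, and Mrpl28 at 41.4 and 88.8 CPM. None of these 3 was called in the DR library, where the cycling cells held 3, 3 and 7 UMIs of them. Mrpl18, whose bacterial homologue binds the 5S rRNA, followed at 128 and 271 CPM, and Mrpl42, a mitochondria-specific protein, at 77.8 and 160 CPM. In the DR library Mrpl18 and Mrpl42 had 124 and 194 CPM and 78.9 and 129.5 CPM, with 24 and 16 UMIs in the cycling cells, and were not called. Mrps12 had 64.7 and 114 CPM in the control and 61.8 and 113 CPM in the DR library, where 14 UMIs left an interval that includes equality. Members called higher in both libraries were Mrpl51, Mrpl33 and Mrpl15. Mrpl33 had 281 and 359 CPM in the control and 208.5 and 340.0 CPM in the DR library.

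The cycling cluster differed from the Ccl1-led cluster in which members were high. Mrpl51 had a log2 ratio of 1.49 in cycling cells and 0.35 in the Ccl1-led cluster of the control library. Mrpl54, at 1.01 in the Ccl1-led cluster, had 0.12 in cycling cells. Mrps18b, at 1.17 (0.83 to 1.51) in the Ccl1-led cluster, had 0.27 (-0.42 to 0.88) in cycling cells, from 22 UMIs there. At 15.6 and 18.8 CPM it lay under the minimum level in the cycling comparison, and the intervals overlapped, so it does not separate the clusters. Mrps28 was high in both, at 2.18 and 1.12. The members called lower in cycling control cells were Mrpl41 (62.9 and 43.5 CPM), Mrpl9 (94.4 and 67.4 CPM), Mrpl52 (232 and 185 CPM) and Mrpl24 (90.9 and 72.6 CPM). All are large subunit genes, which by symbol are 49 of the 78 members. Mrpl52 was thus lower in cycling cells and higher in the Ccl1-led cluster. These contrasts share most of their reference cells, and the difference between the clusters was not tested.

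**Figure D3:**
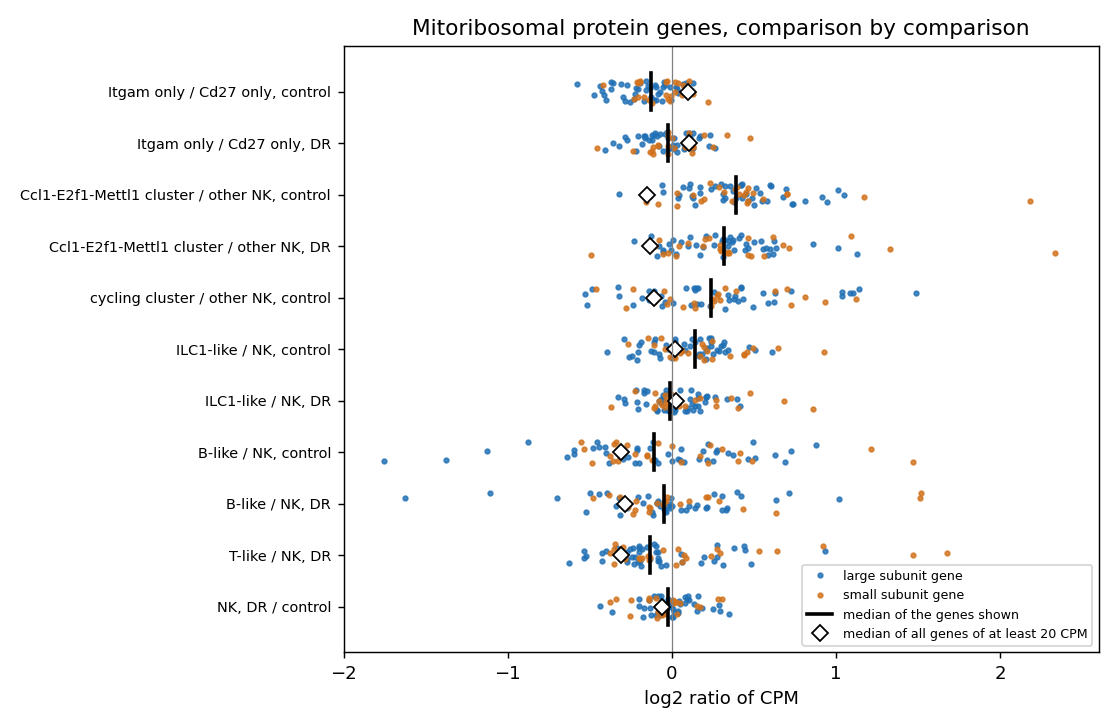
Log2 ratio of CPM (x axis) of each gene that averaged 20 CPM or more in the comparison (dots, blue for the large and orange for the small subunit), with their median (bar) and the median of all genes of that level (diamond), for 11 comparisons (y axis). The gene median lies above the all-gene median in the Ccl1-E2f1-Mettl1 cluster (0.39 against -0.15 in the control) and below it from Cd27-only to Itgam-only cells (-0.12 against 0.10 in the control).

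ILC1-like cells, innate lymphoid cells close to NK cells, were compared next. All 10 ILC1 markers, from which the cluster was named, reached 20 CPM in it in both libraries. The 10 B cell markers summed to 926 CPM in control and 550 CPM in DR ILC1-like cells, and the 10 T cell markers to 700 and 757 CPM, above their levels in NK-like cells, and their part in the results was not tested. Cd8b1, Cd8a, Cd5 and Cd6 were at 0 in the control ILC1-like cells. The 10 NK markers summed to 10339 CPM in control and 9849 CPM in DR ILC1-like cells, where the 10 ILC1 markers summed to 3636 and 3510 CPM. In NK-like cells the NK markers summed to 29498 and 27378 CPM and the ILC1 markers to 127 and 211 CPM. The part of NK transcripts in the results for ILC1-like cells was not tested. The summed member level was 5105 CPM in 312 control ILC1-like cells and 4761 CPM in 415 DR cells, against 4925 and 4793 CPM in NK-like cells. The log2 ratio was 0.05 (0.03 to 0.08) in the control and -0.01 (-0.03 to 0.02) in the DR library, where median-of-ratios scaling made it -0.04 and a total without ribosomal and mitochondrial genes made it 0.04. Of 73 members 11 were called higher and 1 lower in the control (all genes 16.4% and 13%), and of 72 in the DR library 8 and 2 (15.7% and 11.9%). The share of members called higher in ILC1-like cells was thus near that of all genes.

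Higher in ILC1-like cells of both libraries were Mrps28, Mrps18b, Mrps5, Mrps34, Mrpl48 and Mrps10, 5 of them small subunit genes. Small subunit genes by symbol are 29 of the 78 members, and a difference between the subunits was not tested. Mrps28 and Mrps18b lay under 20 CPM in NK-like cells and reached the minimum level only through the ILC1-like cells, so their calls are a description. Mrps28 had 14.7 CPM in NK-like and 27.8 CPM in ILC1-like cells of the control library, and 15.4 and 28.0 CPM in the DR library. Mrps18b had 15.7 and 24.6 CPM in the control and 17.1 and 27.4 CPM in the DR library. Mrps5, a core protein of the small subunit, had 40.4 and 56.8 CPM in the control and 38.7 and 53.8 CPM in the DR library. Each of these 3 was higher in ILC1-like cells by a like amount in both libraries, without overlap. Mrpl58 was the member called lower in the control, at 125 and 94.9 CPM, and had 121.5 and 99.5 CPM in the DR library. Mrpl53, a large subunit protein, was called higher in the control (39.9 and 60.8 CPM) and had 48.9 and 46.0 CPM in the DR library with overlapping intervals.

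B-like and T-like cells were compared last. All 10 B cell markers reached 20 CPM in B-like cells of both libraries, and all 10 T cell markers in T-like cells of the DR library. The clusters were named from these lists, so this is no check of the names. The 10 NK markers summed to 1314 CPM in control B-like cells, 898.5 CPM in DR B-like cells and 1080 CPM in DR T-like cells, against 29498 CPM in control NK-like cells. The summed member level was 4430 CPM in 123 control and 4542 CPM in 455 DR B-like cells and 4629 CPM in 290 DR T-like cells. These sums lay below those of NK-like cells, by log2 ratios of -0.15, -0.08 and -0.05. With median-of-ratios scaling, however, the ratios were 0.16, 0.21 and 0.26, so the direction of the summed level rests on the scaling. The median of all genes was -0.31 in control B-like cells, -0.28 in DR B-like cells and -0.31 in T-like cells, and 75, 71 and 79 of 83 cytosolic ribosomal protein genes were called higher in these classes. The member medians were -0.11, -0.05 and -0.13.

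Of 72 members 13 were called higher and 19 lower in control B-like cells (all genes 17.3% and 44.4%), and 11 and 11 of 72 in DR B-like cells (17.3% and 47.3%). In T-like cells 10 of 73 were higher and 11 lower (12.7% and 47.1%). Mrps28, Mrps18b, Mrpl54, Mrpl12 and Mrpl23, the genes that led the Ccl1-led NK cluster, were also higher in B-like cells of both libraries and in T-like cells, Mrps28 and Mrps18b reaching the minimum level only through those cells. Mrps28 had 40.7 CPM in control and 43.9 CPM in DR B-like cells and 49.3 CPM in T-like cells, against 14.7 and 15.4 CPM in NK-like cells. Mrps18b had 36.4, 48.8 and 47.3 CPM in the same 3 classes, and Mrpl54 had 82.8, 86.2 and 80.9 CPM against 45.0 and 42.5 CPM in NK-like cells. Among NK-like, ILC1-like, B-like and T-like cells, NK-like cells had the lowest level of Mrps28 and Mrps18b. ILC1-like cells lay between NK-like and B-like cells, with intervals that overlapped those of B-like cells in the control and not in the DR library.

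The members higher in NK-like than in B-like cells were led by Mrpl58 and Mrpl33. Mrpl58 had 125 CPM in NK-like and 37.1 CPM in B-like cells of the control library, and 121.5 and 39.3 CPM in the DR library, with log2 ratios of -1.75 and -1.63. Mrpl33 had 284 and 109 CPM in the control and 209 and 97.0 CPM in the DR library. Both were lower in B-like cells without overlap of the intervals, and by more than the typical gene. T-like cells had 100.5 CPM of Mrpl58 and 182 CPM of Mrpl33, and neither was called there. Mrpl9 had 93.5 and 42.8 CPM in the control and 83.1 and 51.2 CPM in the DR library, and Mrpl4 had 96.9 and 52.8 CPM and 75.3 and 53.4 CPM. These 2 were called lower in T-like cells as well, at 61.8 and 52.0 CPM. The mitochondrially encoded messenger RNAs went the other way in B-like cells: 13 of 13 were higher in the control and 12 of 13 in the DR library (17.3% of all genes in each). Of 85 nuclear respiratory chain genes 48 and 36 were lower, where all genes gave 44.4% and 47.3%. The share of these genes was thus above the general share in the control library and below it in the DR library.

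**Figure D4:**
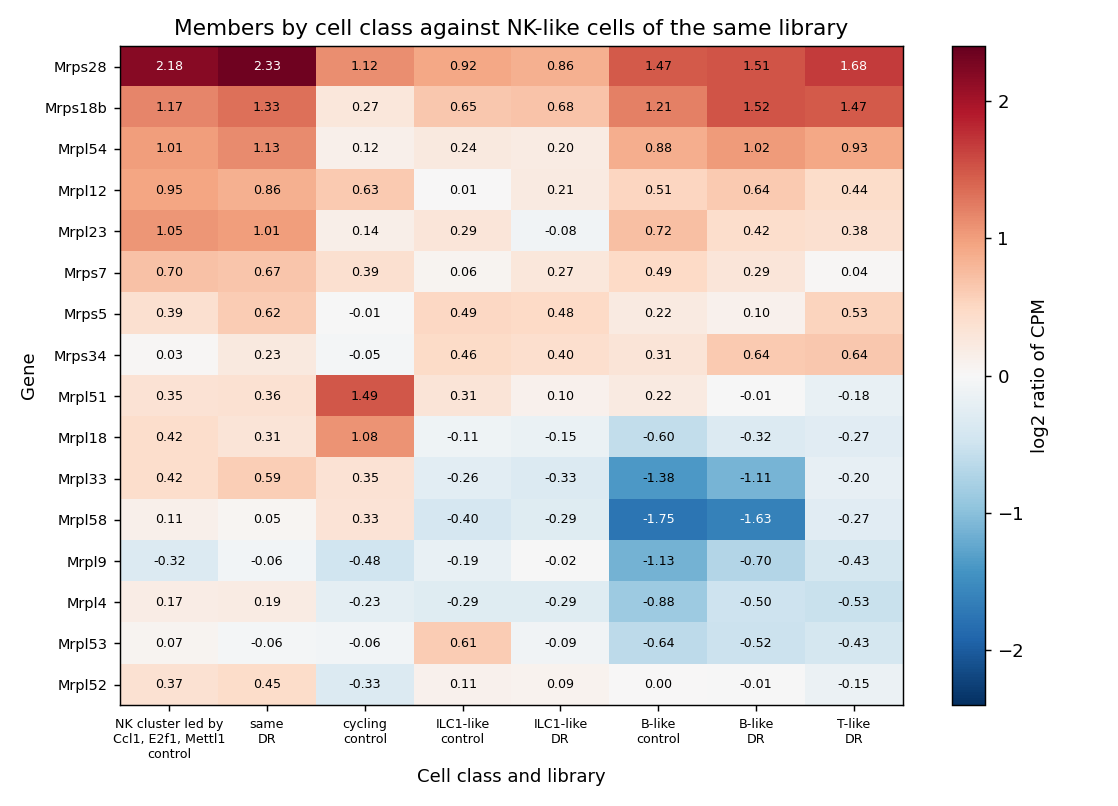
Log2 ratio of CPM (colour and printed value) of 16 genes (y axis), chosen after their values were seen, in each cell class and library (x axis) against NK-like cells of the same library, the NK clusters being set against other NK-like cells. The DR cycling cells, with 3 UMIs of Mrps28, are not shown. Mrps28 is higher in each column shown, from 0.86 in DR ILC1-like cells to 2.33 in the Ccl1-led DR cluster, whereas Mrpl58 and Mrpl33 are lowest in B-like cells.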

How the data were processed

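The authors deposited a gene by barcode matrix of raw UMI counts for each library, made with the 10x Genomics 3' v3.1 kit per the labels' protocols. The submitters' processing notes name mm10 and Cell Ranger 2.1.1, whereas the matrix header, per the file headers, names Cell Ranger 5.0.1. Barcodes under 500 genes or above 10% mitochondrial UMIs were removed. Simulated doublets scored with scanpy 1.11.5 did not give a working automatic threshold (0 and 0 called), so 262 control and 335 DR cells of highest score were removed, 0.8% per 1000 cells. Cells were clustered on 2000 variable genes without the members (30 components, Leiden resolution 0.6) and named from marker lists (NK, ILC1, B, plasma, T, myeloid, erythroid, cycling). The 40 control and 48 DR cells without NK transcripts, and an NK subcluster led by B cell genes, were left out after the data were seen. A cluster led by Batf3, with Cd3d among its top genes, stayed unnamed.

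UMIs were summed per class and library and given as CPM with 95% exact Poisson intervals. Ratios have exact conditional binomial intervals. No p-value was computed, and intervals cover counting error only. The calling was tested on simulated data. Members and lists were chosen with earlier results of these data known. The text names, per comparison, the 4 or 6 members ranked furthest in each direction, the 5 highest and lowest, and the 8 of special role; Mrpl15, Mrpl20, Mrpl2, Mrpl22, Mrpl24, Mrpl9, Mrps10, Mrpl48 and others called were added after their values were seen. Alternatives covered scaling, level and mitochondrial limits, doublets, thinning, stage and cycling definitions and class makeup. Promoters are from RefSeq on GRCm38.p6.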

Additional observations from a re-analysis of the deposited data

Results flagged for a closer look

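Mrpl53, a large subunit protein, was the member called in both directions between the diets over the 6 cell classes. It was called higher in the DR library in 2 classes, Cd27-only cells and cells with neither gene, and lower in 1, ILC1-like cells. Its log2 ratio was above 0 in 5 of 6 classes. The 2 classes furthest apart are given here. In NK-like cells with neither Cd27 nor Itgam UMIs it had 39.2 CPM in the control and 55.3 CPM in the DR library, a log2 ratio of 0.495. In ILC1-like cells it had 60.8 and 46.0 CPM, a log2 ratio of -0.402. The ratios differ by 0.896. With 1 library per group the difference was not tested, and exons of Gm42688 overlap Mrpl53 on the same strand.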

How the results depend on the processing

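No paired analysis was possible because each group has 1 library and the labels give no replicate numbers. With median-of-ratios scaling the summed log2 ratio of DR to control in NK-like cells was 0.021, with 5 members higher and 1 lower; with cytosolic ribosomal and mitochondrially encoded genes left out of the total it was 0.016, again with 5 and 1. Members called higher were 2 from 5 CPM, without a minimum, with doublets kept, with the Batf3-led cluster counted as NK-like (chosen after seeing the data) and with the 4 stages weighted equally. With NK-like clusters weighted equally the ratio was -0.061, with 2 higher and 7 lower. The shares of all genes called under these alternatives are not given here, so the counts cannot be set against a general share. Median-of-ratios scaling and the reduced total gave, for Itgam-only over Cd27-only cells, -0.21 and -0.23 in the control and -0.12 and -0.13 in the DR library; for the Ccl1-led cluster 0.54 and 0.49 and 0.47 and 0.43; for B-like cells 0.16 and 0.14 and 0.21 and 0.16; and for T-like cells 0.26 and 0.33. The same scalings gave -0.035 and 0.041 for DR ILC1-like cells. Median-of-ratios scaling gave 0.41 for control cycling cells, and the reduced total 0.10 for control ILC1-like cells. Thinning to 4000 UMIs gave -0.043 for the control stages, 0.33 for the control Ccl1-led cluster, 0.088 for control ILC1-like cells and -0.12 for DR B-like cells. Stage calls at 2 UMIs gave -0.14 in the control. Doublets kept, with the cells clustered anew, gave 0.21 and 0.22 for a wider cluster led by Spp1, Tnfrsf9 and Mettl1. It held 581 control and 202 DR cells and is not the same set as the Ccl1-led cluster. Doublets kept gave -0.10 for DR B-like cells, which stood at -0.042 with at most 5% mitochondrial UMIs. Cycling cells by cell cycle UMIs gave 0.032 and -0.032, and there Mrpl24 (0.11) and Mrpl42 (-0.0048) in the control and Mrpl51 (-0.043) in the DR library changed sign. Thinning changed the sign of Mrpl41 in control cycling cells (0.080) and Mrpl53 in control B-like cells (0.058), and the reduced total that of Mrps24 in T-like cells (0.0044). The causes were not tested. Beside these, 134 summed values and counts stayed within their limits. Of the values for single members, single subunits and counts outside the diet comparison, 1820 stayed within their limits and 188 moved beyond them without a change of sign of a called value. Few cells limit the precision for DR cycling cells (6), control cycling cells (48) and control B-like cells (123).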

Other observations

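The NK subcluster that was left out because B cell genes led it (212 control and 64 DR cells) had a summed member level of 5989 CPM in the control and 6064 CPM in the DR library, close to the levels of the cycling and Ccl1-led clusters. Its median depth was 4047.5 and 3952.5 UMIs per cell, lower than in any other NK subcluster. Mitochondrially encoded messenger RNAs summed to 3602 and 9088 CPM in it, against 17130 and 24980 CPM in NK-like cells. In the Ccl1-led cluster they summed to 16615 and 22876 CPM, so the likeness to that cluster is in the member sum only. Igkc, an immunoglobulin gene, stood at 86.6 and 255 CPM in it. Its leading genes also include Gzmc, a granzyme. Counting its cells as NK-like, together with the 40 control and 48 DR cells without NK transcripts, gave a summed log2 ratio of DR to control of -0.03.

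Some NK subclusters lay below NK-like cells as a whole, which had 4925 CPM in the control and 4793 CPM in the DR library. A subcluster led by the interferon-induced genes Cxcl10, Ifit1 and Isg15 had 4748 CPM (26 cells, control) and 4267 CPM (12 cells, DR). A subcluster led by the early activation genes Nr4a1, Egr3 and Egr1 had 4694 and 4394 CPM, although Myc stood at 115 and 128 CPM there, above its level in the other NK subclusters. The subcluster led by Kit and Cmya5 had 4625 CPM (1060 cells, control) and 4328 CPM (297 cells, DR). A low level was not particular to these. The large subclusters led by Cx3cr1 (4766 and 4693 CPM) and by Emb and Ltb (4903 and 4713 CPM) were also below. Intervals of the Cx3cr1-led DR cells and the Emb-led control cells include the level of NK-like cells as a whole. The subcluster led by Ly6c2 lay above, at 4991 and 4840 CPM. NK-like cells as a whole include the Ccl1-led and cycling clusters. The interval of the 26 control cells led by interferon-induced genes, 4489 to 5018 CPM, includes the level of control NK-like cells as a whole.

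Ncapd2, the condensin gene, starts 100 bases from the GENCODE start of Mrpl51 on the opposite strand. It had 5.72 CPM in other NK-like cells and 182 CPM in cycling cells of the control library. In the DR library it had 5.12 and 113 CPM. The log2 ratios were 4.99 and 4.47 for Ncapd2 beside 1.49 and 1.30 for Mrpl51. Whether the shared promoter region bears on either was not tested.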
